A study of Mus musculus with 2 samples.

Results

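The receptors of the TREM family and their adaptors were examined in monocytic myeloid-derived suppressor cells (M-MDSCs) that had been induced with or without CHBP, a cyclic peptide derived from erythropoietin. The members were taken by symbol from the deposited gene table: the receptors Trem1, Trem2, Trem3, Treml1, Treml2 and Treml4, and the adaptors Tyrobp and Hcst, 8 of 34745 listed genes. Bone marrow cells of C57BL/6 mice aged 6 to 8 weeks were kept for 7 days in medium with 50 ng/ml GM-CSF (CHBP- M-MDSC) or with the same GM-CSF together with CHBP (CHBP+ M-MDSC), and sorted as CD11b+Ly6G-Ly6C high cells before RNA was taken. The labels name the strain of the CHBP+ sample as C57BL/7 and give no CHBP dose. The paper gives different CHBP doses in its culture methods and in its results, and its RNA sequencing methods name none. The number of mice behind each sample is not given in the sources used here. Each condition is 1 library, so the 2 libraries have no replicates, no difference given here has a replicate check, and an effect of CHBP cannot be told apart from whatever else distinguished both cultures.

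TREM receptors are single-chain proteins of the immunoglobulin superfamily on myeloid cells. Most of them have almost no signalling tail, and they pair in the membrane with DAP12, the product of Tyrobp. DAP12 carries an immunoreceptor tyrosine-based activation motif (ITAM) that is phosphorylated by Src family kinases and then binds the kinase Syk. DAP10, the product of Hcst, carries a different tyrosine motif that binds PI3-kinase and Grb2. In monocytes and macrophages these complexes tune inflammatory signalling, phagocytosis and survival, and whether their transcripts differed between M-MDSCs made with and without CHBP was the question here.

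Gene reads came to 16484504 for CHBP- M-MDSC and 16280466 for CHBP+ M-MDSC, and a gene without reads could be present at up to 0.182 or 0.184 CPM (reads scaled to the library's total), the level of 3 reads. Levels are given as FPKM, reads scaled to the gene's length in kilobases and to the library's total. The log2 ratio of a gene compares its FPKM in CHBP+ M-MDSC with that in CHBP- M-MDSC after 1 was added to each, a scale that makes differences of low genes look smaller than they are. Intervals are exact 95% intervals (Clopper-Pearson for ratios, Poisson for levels), and they cover counting error only. The 10948 genes that reached 1 FPKM in either library served as the background. Of these, 3.42% were at least 1.5-fold higher and 2.89% at least 1.5-fold lower in CHBP+ M-MDSC, and the median log2 ratio was -0.03. Monocyte markers were present in both libraries, and of 9 listed entries (Itgam under 2 identifiers) 4 were above 0 and 5 below 0 in log2 ratio. Itgam, which encodes the sorting antigen CD11b, had log2 ratios of 0.56 and 0.61. Ly6c2, which encodes the sorting antigen Ly6C, had 4091 reads in CHBP- and 2411 in CHBP+ M-MDSC (log2 ratio -0.73), and the neutrophil antigen gene Ly6g was at 2.19 and 2.12 FPKM. In bulk RNA, fewer cells of a type and less RNA per cell cannot be told apart.

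By deposited FPKM, the most abundant members, Tyrobp and Treml2, were at nearly the same level in both libraries, and the larger differences lay in less abundant members. Both the order of the members and the sizes of their differences depended on how gene length was treated, as given below. Of the 8 members, 7 reached 1 FPKM in at least one library, and Treml4 did not. None of the 7 was at least 1.5-fold higher in CHBP+ M-MDSC, and 2 of them, the adaptor gene Hcst and the platelet receptor gene Treml1, were at least 1.5-fold lower. Neither was 1.5-fold lower once the trend of the log2 ratio with gene length was removed. With so few members, this count is given as a description beside the background of 2.89%. The median log2 ratio of the 7 members was -0.23, with 2 of them above 0 and 5 below 0. The counting interval of the read ratio lay below 1 for 4 of the 7 (Trem2, Trem3, Treml1 and Hcst) and above 1 for Treml2, whereas it did so for 31.0% and 27.9% of all genes kept. It included 1 for Trem1 and Tyrobp.

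**Figure D1:**
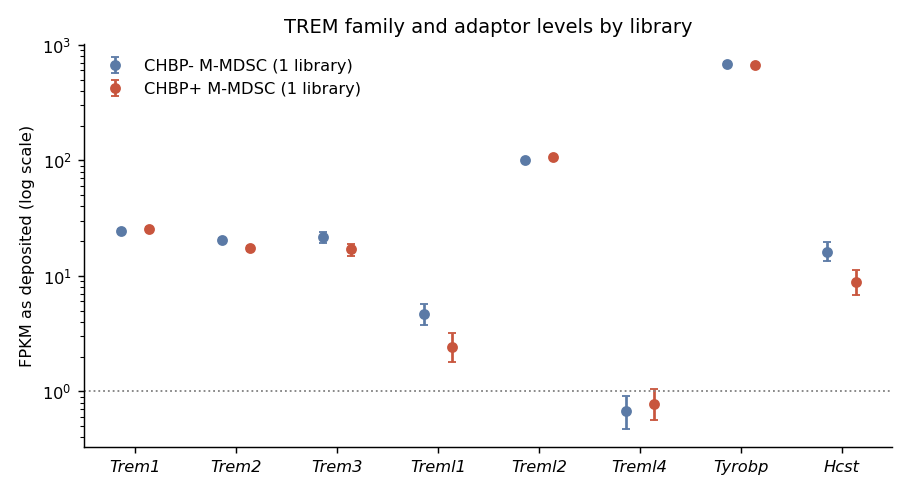
FPKM of each member (log axis) in the 1 library of CHBP- M-MDSC and the 1 library of CHBP+ M-MDSC, with exact 95% Poisson intervals of the reads as error bars and a dotted line at 1 FPKM. Tyrobp lies highest, at 689 and 671 FPKM, and Treml4 lies under the line in both libraries.

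The 6 receptor genes lie together on chromosome 17 from 48232768 to 48367174 (GRCm38), a cluster of 134.4 kb, and both adaptor genes lie on chromosome 7, where 139 bases separate the end of Tyrobp (30413788 to 30417577) from Hcst (30417717 to 30419854). No listed gene overlapped a member. The longest exact run of bases shared by the coding transcripts of any pair of members was 17, between Treml1 and Treml2, which is shorter than the reads of 75 bases. The promoters of the 2 members past the fold threshold are shown with those of Trem1 and Trem2, which were within it. They come from RefSeq on GRCm38.p6, where 5 of the 8 members had an entry, and run 5′ to 3′ on the gene's strand from 250 bases before the start site to 50 after it, at chr7:30419805-30420104 (minus strand) for Hcst, chr17:48359666-48359965 (plus strand) for Treml1, chr17:48232489-48232788 (plus strand) for Trem1 and chr17:48346151-48346450 (plus strand) for Trem2. Capitals mark GAGGAA and AGGAAGT on either strand, letters of the kind bound by ETS family factors such as PU.1 (the 2 share the run AGGAA), and AGATAA on either strand, a run of the kind bound by GATA factors.
Hcst: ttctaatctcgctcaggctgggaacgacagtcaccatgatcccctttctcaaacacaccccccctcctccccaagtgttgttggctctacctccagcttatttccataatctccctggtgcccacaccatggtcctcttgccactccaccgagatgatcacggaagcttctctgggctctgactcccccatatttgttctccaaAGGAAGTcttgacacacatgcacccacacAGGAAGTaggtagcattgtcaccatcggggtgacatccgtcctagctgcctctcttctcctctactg
Treml1: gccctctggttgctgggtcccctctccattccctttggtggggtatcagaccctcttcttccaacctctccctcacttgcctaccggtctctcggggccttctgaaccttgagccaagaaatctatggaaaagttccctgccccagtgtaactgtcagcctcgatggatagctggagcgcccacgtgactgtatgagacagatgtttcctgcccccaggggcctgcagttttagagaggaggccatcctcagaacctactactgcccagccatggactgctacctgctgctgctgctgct
Trem1: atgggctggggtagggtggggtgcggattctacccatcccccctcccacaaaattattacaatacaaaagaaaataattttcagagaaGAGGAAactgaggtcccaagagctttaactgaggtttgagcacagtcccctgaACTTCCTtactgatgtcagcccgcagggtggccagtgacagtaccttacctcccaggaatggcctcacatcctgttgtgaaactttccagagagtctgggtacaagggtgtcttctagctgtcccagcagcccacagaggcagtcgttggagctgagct
Trem2: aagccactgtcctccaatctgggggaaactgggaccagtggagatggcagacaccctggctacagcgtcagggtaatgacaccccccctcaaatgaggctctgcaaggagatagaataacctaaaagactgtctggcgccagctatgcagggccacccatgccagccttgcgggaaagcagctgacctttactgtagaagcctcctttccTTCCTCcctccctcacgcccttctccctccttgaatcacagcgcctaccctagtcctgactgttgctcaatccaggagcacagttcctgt
AGGAAGT stood in the Hcst promoter at 2 places, 46 and 17 bases before the start site, and in that of Trem1 once, and 9.35% of the 32851 promoters in the RefSeq table held it. GAGGAA stood once in the promoters of Trem1 and Trem2 and was held by 28.3% of all promoters. None of the letters searched was found in the Treml1 promoter, and AGATAA, held by 11.2% of all promoters, was in none of the 4. Other runs of the kind bound by GATA factors were not searched, so a GATA site in these promoters is not excluded. The promoters of both lower genes thus shared none of the 3 runs of letters.

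Tyrobp was the most abundant member in both libraries. It had 6410 reads in CHBP- and 6165 in CHBP+ M-MDSC, or 689 FPKM (interval 673 to 707) and 671 FPKM (655 to 688). It ranked 62nd and 52nd in FPKM among the genes kept. Its log2 ratio was -0.04 (-0.09 to 0.01), so that a difference in Tyrobp was not detectable at this depth. With the trend in deposited length or in coding transcript length removed its sign turned, to 0.21 or 0.32.

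Hcst, the other adaptor gene, was far less abundant and was lower in CHBP+ M-MDSC. It had 117 reads in CHBP- and 63 in CHBP+ M-MDSC, or 16.2 FPKM (13.4 to 19.5) and 8.86 FPKM (6.80 to 11.3). Its log2 ratio was -0.81 (-1.23 to -0.39), and its CPM was 0.545 times that in CHBP- M-MDSC (0.395 to 0.747). The CHBP+ to CHBP- read ratio of Hcst was 0.560 times that of Tyrobp (0.405 to 0.769), so these neighbouring genes differed unequally between the libraries. Tyrobp exceeded Hcst 42.4-fold in FPKM in CHBP- and 75.8-fold in CHBP+ M-MDSC. DAP10 is best known as the partner of NKG2D in NK and T cells, and genes of lymphocytes moved with it. Of 10 lymphocyte and NK cell markers, 3 reached 1 FPKM, all of them B cell genes and all below 0 in log2 ratio, and the summed level of the list was 28.4 FPKM in CHBP- and 19.5 FPKM in CHBP+ M-MDSC. Cd79a, a chain of the B cell receptor, was at 18.5 and 10.5 FPKM. Cd3e was at 0.338 and 0.599 FPKM, Klrk1, which encodes NKG2D, was at 0.791 and 0.875 FPKM, and the NK cell gene Ncr1 had no reads in either library. The part of lymphocyte RNA in the difference of Hcst was not tested.

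Trem1 encodes a receptor of monocytes and neutrophils that amplifies inflammatory responses. It had 1962 and 2025 reads, which gave 24.4 FPKM in CHBP- and 25.5 FPKM in CHBP+ M-MDSC, and its log2 ratio was 0.06 (-0.03 to 0.15). A difference in Trem1 was thus not detectable at this depth.

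Trem3, the gene next to Trem1 in the cluster, encodes an activating receptor that also pairs with DAP12 in mice. It had 353 and 274 reads, or 21.5 FPKM (19.4 to 23.9) in CHBP- and 16.9 FPKM (15.0 to 19.1) in CHBP+ M-MDSC. Its log2 ratio was -0.33 (-0.55 to -0.11), less than 1.5-fold. With the trend in deposited length or in coding transcript length removed it was -0.10 or -0.026, both outside that interval. The CHBP+ to CHBP- read ratio of Trem3, a gene in the shortest length decile, was 0.752 times that of Trem1 (0.632 to 0.894). Trem1 and Trem3 are both expressed by neutrophils, and of 9 neutrophil markers 3 were above 0 and 6 below 0 in log2 ratio. Their summed level was 1576 FPKM in CHBP- and 1783 FPKM in CHBP+ M-MDSC, most of it Mmp8, and Elane, the neutrophil elastase gene, was at 75.2 and 46.3 FPKM. The part of neutrophil RNA in the values of both genes was not tested.

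Trem2, a receptor for lipids and lipoproteins on macrophages, osteoclasts and microglia, had 2075 reads in CHBP- and 1732 in CHBP+ M-MDSC. Its deposited level was 20.6 FPKM (19.7 to 21.5) and 17.4 FPKM (16.6 to 18.2). The log2 ratio was -0.23 (-0.32 to -0.14), a difference past counting error and less than 1.5-fold, whose sign turned (0.058) when the trend with coding transcript length was removed. The read ratio of Trem2 was 0.809 times that of Trem1 (0.739 to 0.885). Trem1 over Trem2 was 1.18 in CHBP- and 1.46 in CHBP+ M-MDSC in deposited FPKM, and 0.340 and 0.421 by coding transcript length. Macrophage markers did not share one direction, with 4 of 7 above 0 and 3 below 0 in log2 ratio. Their summed level was 475 FPKM in CHBP- and 504 FPKM in CHBP+ M-MDSC. C1qa, a complement gene of mature macrophages, was at 10.3 and 7.97 FPKM, and Mrc1, the mannose receptor gene, was at 8.17 and 11.9 FPKM. Their part in the difference of Trem2 was not tested.

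Treml1 encodes TLT-1, a receptor stored in platelet granules. It had 96 reads in CHBP- and 49 in CHBP+ M-MDSC, or 4.67 FPKM (3.78 to 5.70) and 2.41 FPKM (1.78 to 3.19). Its log2 ratio was -0.73 (-1.11 to -0.34), and its CPM was 0.517 times that in CHBP- M-MDSC (0.359 to 0.736). The read ratios of Treml1 and Hcst did not differ past counting error, with Hcst at 1.05 times Treml1 (0.649 to 1.72). Platelet and megakaryocyte markers were present in both libraries, with a summed level of 394 FPKM in CHBP- and 337 FPKM in CHBP+ M-MDSC. Of 8 such markers kept, 4 were above 0 and 4 below 0. Pf4, the platelet factor gene and the most abundant of them, was at 258 and 196 FPKM, and Gp9, a subunit of the von Willebrand factor receptor, was at 2.27 and 1.25 FPKM. Itga2b, the platelet integrin chain, was at 9.89 and 10.5 FPKM, and its partner Itgb3 was at 3.67 and 12.9 FPKM. The part of platelet RNA in the difference of Treml1 was not tested.

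Treml2 encodes TLT-2, found on B cells, neutrophils and macrophages, and it was the receptor gene with the most reads. It had 7509 reads in CHBP- and 7849 in CHBP+ M-MDSC, or 101 FPKM (98.8 to 103) and 107 FPKM (105 to 109). Its log2 ratio was 0.08 (0.04 to 0.13), a small difference past counting error, whose sign turned (-0.059) when the trend with coding transcript length was removed. The read ratio of Treml1 was 0.488 times that of Treml2 (0.338 to 0.697).

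Treml4, a receptor of dendritic cells and macrophages that binds dying cells, was near the limit of what these libraries could measure. It had 39 and 45 reads, or 0.669 FPKM (0.476 to 0.915) in CHBP- and 0.782 FPKM (0.570 to 1.05) in CHBP+ M-MDSC. Its read ratio was 1.17 with an interval from 0.744 to 1.84, so that any difference from a decrease to an increase past 1.5-fold was possible at this depth.

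**Figure D2:**
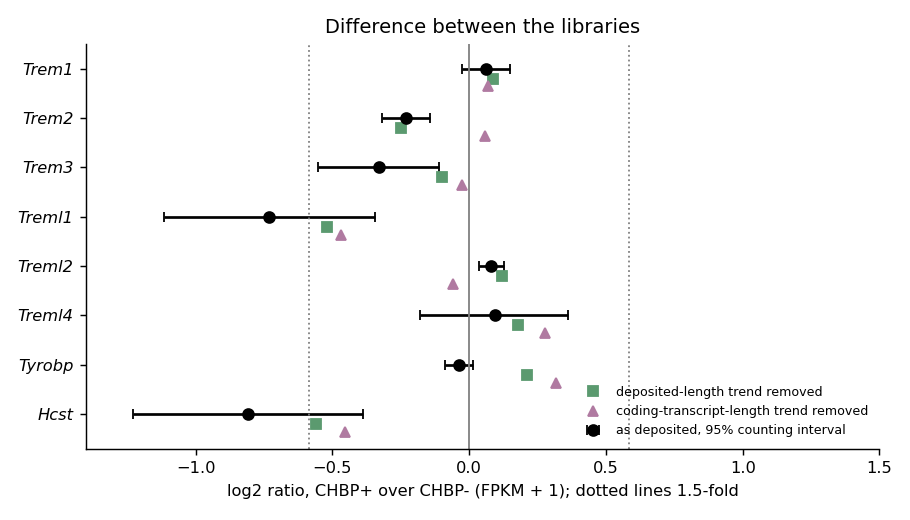
Log2 ratio of each member, CHBP+ over CHBP- M-MDSC, 1 library each. Black points with bars are the deposited FPKM plus 1 with the 95% counting interval, squares and triangles are the same value after the trend with the deposited gene length or with the coding transcript length was removed, and dotted lines mark 1.5-fold. Hcst (-0.81) and Treml1 (-0.73) are past the lower line, and both lie inside it once a length trend is removed.

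Longer genes had higher log2 ratios across all genes, and the members differ widely in length. Spearman's rho of the log2 ratio with the gene length behind the deposited FPKM was 0.478 across the 10948 genes kept, which share both libraries and are no replicates of each other. Hcst (437 bases), Tyrobp (564 bases), Trem3 (994 bases) and Treml1 (1248 bases) were all in the shortest length decile, whose 1096 genes had a median log2 ratio of -0.30 and a range from percentile 10 to percentile 90 of -0.61 to 0.26. Hcst and Treml1 were below that range, Trem3 was at its median, and Tyrobp was above its median. Trem1 (4886 bases) and Treml2 (4509 bases) were in the fifth decile, whose median was -0.03. With a cubic trend in log length removed, the log2 ratio was -0.56 for Hcst and -0.52 for Treml1, both less than 1.5-fold, so that no member remained at least 1.5-fold lower. In the same setting the value was -0.10 for Trem3, 0.21 for Tyrobp, -0.25 for Trem2, 0.09 for Trem1 and 0.12 for Treml2. With the trend in coding transcript length removed (rho 0.687 across 10211 genes), Hcst was at -0.45 and Treml1 at -0.47. The cause of the trend was not tested.

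**Figure D3:**
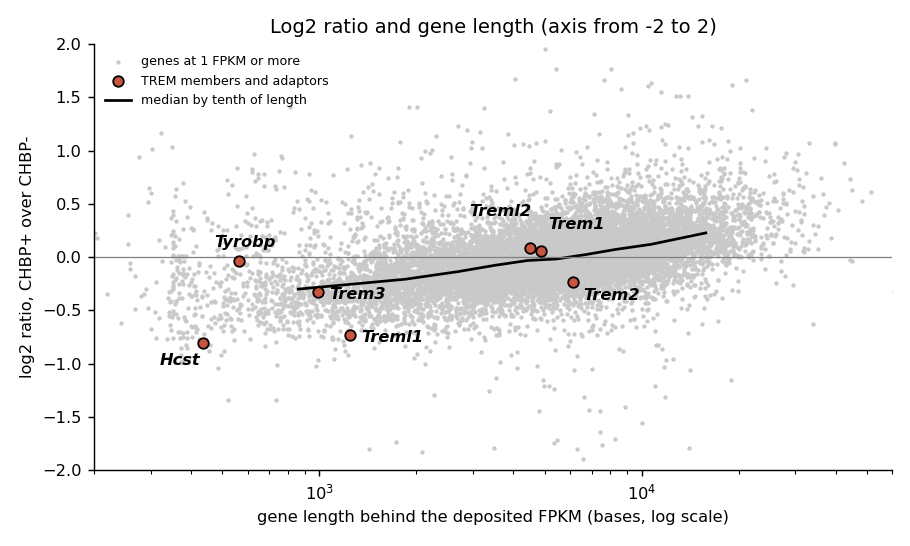
Log2 ratio, CHBP+ over CHBP- M-MDSC, against the gene length behind the deposited FPKM (bases, log axis). Grey points are the genes that reached 1 FPKM in either library, red points the 7 members among them, and the black line joins the medians of length deciles, and 41 genes lie outside the plotted range. Hcst and Treml1 lie below the line and Tyrobp above it.

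The order of the receptors by level depended on the gene length used. By the deposited FPKM the order in CHBP- M-MDSC was Treml2, Trem1, Trem3, Trem2, Treml1 and Treml4, and Trem3 and Trem2 did not differ past counting error (ratio 1.05, 0.933 to 1.17). In CHBP+ M-MDSC Trem2 stood before Trem3, again without a difference past counting error (ratio 1.03, 0.903 to 1.17). The other neighbours in the order differed past counting error in both libraries. The deposited FPKM of Trem2 rests on a length of 6119 bases, however, 5.62 times its longest protein-coding transcript of 1088 bases in the GENCODE M1 annotation. A ratio at least that large was found for 2.04% of the genes kept with a coding transcript. The corresponding ratio was 1.62 for Trem1 and 2.03 for Treml4, and it was 1 for the other members. With the coding transcript as length, Trem2 was at 116 in CHBP- and 97.8 in CHBP+ M-MDSC on the FPKM scale, above Treml2 (101) in CHBP- and below it (107) in CHBP+ M-MDSC. The difference between both genes was past counting error in each library, with ratios of 1.15 (1.09 to 1.20) for Trem2 over Treml2 in CHBP- and 1.09 (1.04 to 1.15) for Treml2 over Trem2 in CHBP+ M-MDSC. Trem2 thus made up 11.9% of the summed receptor FPKM in CHBP- M-MDSC as deposited and 40.8% by coding transcript length, and 10.2% and 36.7% in CHBP+ M-MDSC. Which of these lengths describes the transcripts in these cells was not tested. By either length, Tyrobp exceeded the sum of the 6 receptors, 3.99-fold and 3.95-fold as deposited and 2.43-fold and 2.52-fold by coding transcript length in CHBP- and CHBP+ M-MDSC. Treml2 alone made up 58.5% and 62.9% of that sum as deposited, and 35.6% and 40.1% by coding transcript length. Which of the 6 receptors pair with DAP12 in these cells was not measured. The excess of Tyrobp over their sum is therefore not an excess over its partners.

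**Figure D4:**
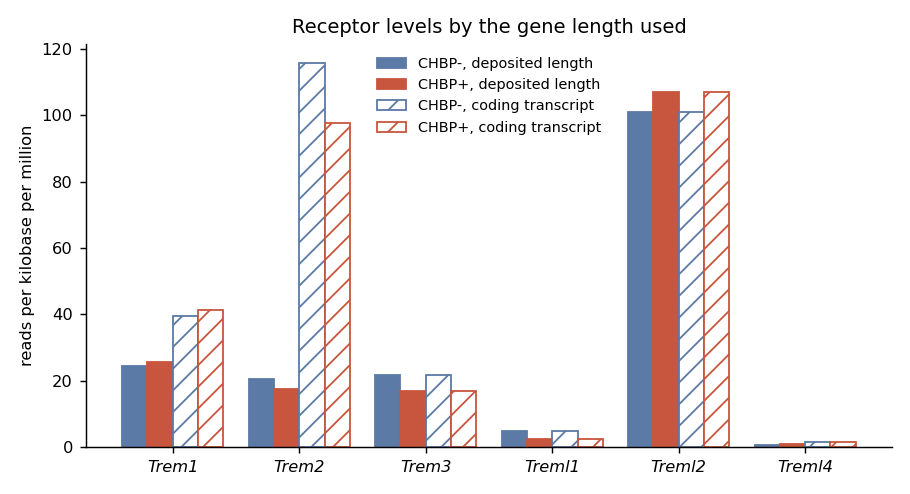
Length-scaled levels (reads by kilobase of gene length and library total, as in FPKM) of the 6 receptor genes in the 1 library of each condition, with filled bars for the length behind the deposited FPKM and hatched bars for the longest GENCODE M1 protein-coding transcript. The bars of Trem2 go from 20.6 and 17.4 to 116 and 97.8, whereas those of Trem3, Treml1 and Treml2 are the same by either length.

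Within the cluster on chromosome 17, 1 further listed gene lies between Trem1 and Treml1. B430306N03Rik, for which RefSeq gives the synonym Treml6, had 2347 and 2921 reads, which gave 14.9 FPKM in CHBP- and 18.7 FPKM in CHBP+ M-MDSC. The log2 ratio was 0.31, and the read ratio was 1.26 (1.19 to 1.33). The receptor genes of the cluster thus differed unequally between the libraries, from a read ratio of 0.517 for Treml1 to 1.26 for B430306N03Rik. These genes differ in length, with Treml1 (1248 bases) in the shortest length decile. The part of gene length in this spread was not tested.

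Downstream of the adaptors, the signalling genes were present in both libraries. Of 34 genes for kinases, scaffolds and other enzymes that carry DAP12 and DAP10 signals, 33 reached 1 FPKM. None of the 33 was past 1.5-fold in either direction, beside 3.42% higher and 2.89% lower of all genes kept. In log2 ratio, 18 were above 0 and 15 below 0, with a median of 0.02. The most abundant were Rac2, a small GTPase of myeloid cells (183 and 153 FPKM, log2 ratio -0.26), and Mapk3, which encodes the kinase ERK1 (75.9 and 64.0 FPKM, log2 ratio -0.24). Removal of the trend in deposited length or in coding transcript length brought Rac2 to -0.15 or -0.25 and Mapk3 to -0.18 or -0.07. Syk, the kinase that binds the ITAM of DAP12, was at 37.9 and 43.1 FPKM, with a log2 ratio of 0.18. Syk and the next genes were chosen after their values were seen. The ends of the list were Malt1, a protease of the Card9 complex (51.9 and 76.6 FPKM, log2 ratio 0.55, read ratio 1.48), and Card9, its scaffold (39.2 and 29.2 FPKM, log2 ratio -0.41). Sos1, a Ras activator, had a read ratio of 1.498 (1.35 to 1.66). On the scale with 1 FPKM added, on which the threshold was applied, its log2 ratio was 0.49, less than 1.5-fold. The length trend was not removed from the values given for Syk, Malt1, Card9 and Sos1. Among 10 genes that restrain these signals, none was at least 1.5-fold lower (2.89% of all genes kept). Only 1 was at least 1.5-fold higher (3.42% of all genes kept), a count given as a description. That gene was Cbl, a ubiquitin ligase that marks activated kinases for degradation, with 3439 reads in CHBP- and 6190 in CHBP+ M-MDSC and a log2 ratio of 0.81. Cbl is a long gene (17643 bases), and with the trend in deposited length removed its value was 0.55, less than 1.5-fold, and with that in coding transcript length removed it was 0.63. Ptpn6, the phosphatase SHP-1, was at 69.6 and 61.3 FPKM (log2 ratio -0.18), and Dok3, an inhibitory adaptor, was at 49.1 and 35.1 FPKM (log2 ratio -0.47). After removal of the trend in deposited length or in coding transcript length, Ptpn6 was at -0.16 or -0.08. Dok3 was at -0.28 or -0.26 in these settings.

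Other receptors that pair with DAP12 or DAP10, or with TREM2 itself, are known from myeloid and NK cells. Of 15 such genes 12 reached 1 FPKM, with 9 above 0 and 3 below 0 in log2 ratio and a median of 0.10. Of all genes kept, 53.7% were below 0. Among the 9 above 0, the counting intervals of Clec5a, Sirpb1a, Sirpb1b and Sirpb1c included 0, as did that of Klrd1 among the 3 below 0. The length trend was not removed from this median. The most abundant were Cd200r4, an activating receptor of the CD200R family (109 and 115 FPKM, log2 ratio 0.07), and Clec5a, a lectin that signals through DAP12 (63.1 and 63.2 FPKM, log2 ratio 0.00). Plxna1, which encodes a semaphorin receptor that can associate with TREM2, had 1241 and 2026 reads and a log2 ratio of 0.65. It was the 1 gene of the list at least 1.5-fold higher and none was lower, beside 3.42% and 2.89% of all genes kept. With the trend in deposited length or in coding transcript length removed its value was 0.49 or 0.22, less than 1.5-fold. The near-identical genes Pilrb1 and Pilrb2, and likewise the Sirpb1 genes, may share reads, and their counts are uncertain. Fcer1g, the ITAM adaptor of Fc receptors, was the most abundant adaptor gene after Tyrobp, at 283 FPKM in CHBP- and 214 FPKM in CHBP+ M-MDSC, with a log2 ratio of -0.40. Removal of the trend in deposited length or in coding transcript length brought Fcer1g to -0.21 or -0.05. Cd247, its counterpart in T cells, had 13 and 9 reads.

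Among 9 genes for reported TREM ligands and for the proteases that release TREM ectodomains, 7 reached 1 FPKM, with 3 above 0 and 4 below 0. None was past 1.5-fold on the scale with 1 FPKM added, beside 3.42% higher and 2.89% lower of all genes kept. The most abundant were Lgals3, a galectin reported as a TREM2 ligand (964 and 810 FPKM, log2 ratio -0.25), and Adam10, a protease that cleaves TREM2 from the cell surface (38.8 and 46.9 FPKM, log2 ratio 0.27). Removal of the trend in deposited length or in coding transcript length brought Lgals3 to -0.13 or -0.02 and Adam10 to 0.24 or 0.12. Pglyrp1, a ligand of TREM1, was past 1.5-fold lower by its read ratio and not on that scale, and is named after its values were seen. It had 751 reads in CHBP- and 481 in CHBP+ M-MDSC, with a log2 ratio of -0.58 and a read ratio of 0.649 (0.577 to 0.728), and it counted as lower with CPM or with a pseudocount of 0.1 FPKM. Apob and Il34 had no reads in either library.

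**Figure D5:**
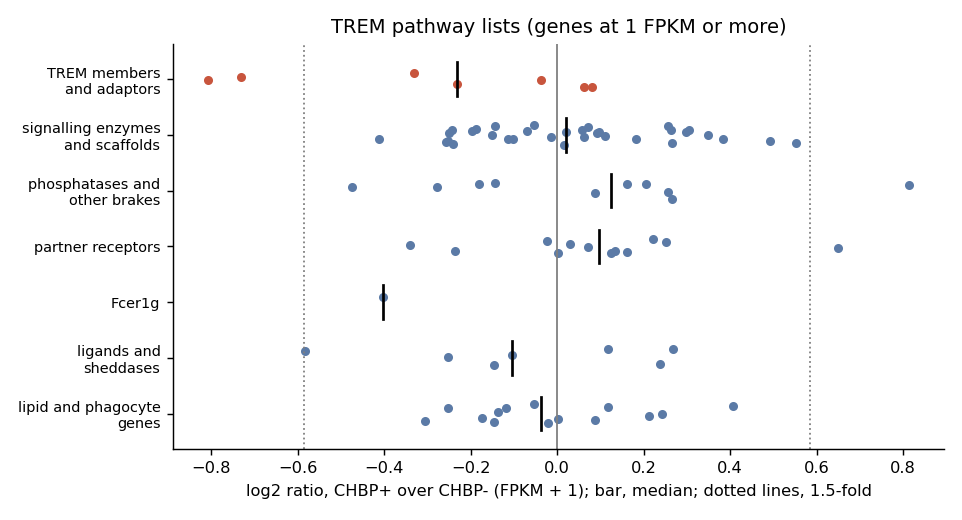
Log2 ratio, CHBP+ over CHBP- M-MDSC, of the 7 members kept (red) and of the genes of each pathway list kept (blue), with a bar at the median of each list and dotted lines at 1.5-fold. Hcst and Treml1 are past the lower line, and Cbl (0.81) and Plxna1 (0.65) are past the upper line.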

How the data were processed

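RNA of CHBP- and CHBP+ M-MDSC was sequenced as single-end reads of 75 bases, 1 library per condition, grouped by the treatment label. Per the labels, the authors removed adapters, low-quality 3′ bases, short reads and ribosomal RNA reads with Seqtk. The submitters' processing notes name HISAT2 2.0.4, Cufflinks 2.1.1 and Cuffdiff on mm10/GRCm38, whereas the paper's methods name TopHat2, HT-seq, DESeq and mm9. All 8 members overlapped their RefSeq gene on GRCm38 at the deposited coordinates. The deposited counts are raw reads per gene, and how strand and multi-mapping reads were treated is not given in the sources used here. The deposited FPKM equal these counts over gene length and library total, and the lengths recovered in this way were equal in both libraries within 0.1% for all 15864 genes with reads in both.

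A count model (the quasi-likelihood test of edgeR, or DESeq2) needs replicates and was not run, and no P value was computed. Log2 ratios used a pseudocount of 1 FPKM. Genes were counted past 1.5-fold, the fold of the study's methods, among those that reached 1 FPKM in either library. Intervals are 95% Clopper-Pearson or Poisson intervals, and conditional exact intervals for ratios of ratios. Only the interval of the read ratio and the removal of a trend with deposited length were tested on simulated data. The simulated reads were Poisson counts, so this test covers counting error alone. Reads are not independent molecules. All 8 members are named, and of each pathway list the 2 most abundant genes and every gene past 1.5-fold. Syk, Malt1, Card9, Sos1, Pglyrp1, Cd247, Apoe and Klrk1 were added after their values were seen. The members and lists were chosen with earlier results of these data known. The 2 libraries give no pattern by which genes of like behaviour could be chosen. Tried as alternatives were a filter of 5 FPKM or none, a pseudocount of 0.1, a median log2 ratio set to 0, trimmed mean of M values (edgeR 4.0.16, R 4.3.3), CPM, a fold of 2, and removal of a cubic trend with log length. Use of the longest GENCODE M1 coding transcript as length was chosen after seeing the data. Python 3.11.15, numpy 2.4.6, pandas 2.3.3, scipy 1.17.1 and matplotlib 3.10.9 were used.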

Additional observations from a re-analysis of the deposited data

How the results depend on the processing

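Of 48 log2 ratios of members recomputed under settings that could change them, 42 stayed within the counting interval, and no member past 1.5-fold changed sign. The exceptions all came from removal of the length trend, whose cause was not tested. The other settings rescale the same counts or change the pseudocount, so 42 of 48 is no measure of stability. With deposited length, Trem3 was at -0.10 and Tyrobp at 0.21. With coding transcript length, Trem2 was at 0.058, Trem3 at -0.026, Treml2 at -0.059 and Tyrobp at 0.32, so that the signs of Trem2, Treml2 and Tyrobp turned. Hcst ranged from -0.87 to -0.45 and Treml1 from -0.92 to -0.47 over the settings. The number of members at least 1.5-fold lower was 1 with at least 5 FPKM required (Treml1 was no longer counted) and 0 with either length trend removed or a fold of 2. No member was 1.5-fold higher in any of these settings. The number of pathway genes at least 1.5-fold higher, 2 as reported, was 0 with the deposited-length trend removed or a fold of 2 and 1 (Cbl) with the coding-length trend removed, and the number at least 1.5-fold lower, 0 as reported, was 1 (Pglyrp1) with a pseudocount of 0.1 or with CPM. Among all genes, 374 were higher and 316 lower as reported, 218 and 209 among genes that reached 5 FPKM, 665 and 571 under the pseudocount of 0.1, 85 and 46 at a fold of 2, 312 and 168 with the deposited-length trend removed, and 195 and 98 with the coding-length trend removed, and 609 and 395 with CPM. Depth limits Treml4, Hcst and Treml1, with at most 117 reads in a library. No paired analysis was possible because each condition has 1 library, and no replicate could be left out.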

Other observations

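Genes that often accompany Trem2 in lipid-laden macrophages, such as lysosomal proteases, lipid carriers and lipoprotein lipase, were present in both libraries. All 14 genes of this list reached 1 FPKM, and none was 1.5-fold apart, beside 3.42% higher and 2.89% lower of all genes kept. In log2 ratio, 6 were above 0 and 8 below 0, with a median of -0.04, against -0.03 over all genes kept. Ctsd, the protease cathepsin D, was at 1298 FPKM in CHBP- and 1181 FPKM in CHBP+ M-MDSC (log2 ratio -0.14), and Spp1, which encodes osteopontin, was at 1253 and 1206 FPKM (log2 ratio -0.05). The levels spanned a wide range. Apoe, a lipid carrier bound by TREM2, had 394 and 430 reads, or 4.27 and 4.72 FPKM.

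Beside the cluster of TREM genes lies 9830107B12Rik, for which RefSeq gives the synonym Trem5, a gene chosen after its values were seen. It had 344 reads in CHBP- and 389 in CHBP+ M-MDSC, with a read ratio of 1.14 (0.988 to 1.33), so that no difference was detectable at this depth.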
